A study of Mus musculus with 5 samples.

Results

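The pre-double positive (preDP) thymocytes were compared with the other 4 populations of the series, gene by gene, to find the genes whose signal was highest or lowest in them. Of 8251 genes with a named probe set, 5443 were above a signal floor of 130.4 on at least 1 of the 5 arrays and entered the comparison. A gene was set against the highest, the lowest and the median of the other 4 arrays. In preDP, 1175 of the 5443 genes (21.6%) had their highest signal and 725 (13.3%) their lowest, at any size of difference. By at least 1.5-fold these were 69 genes (1.27%) above every other array and 75 (1.38%) below every other array, and by at least 2-fold 3 genes (0.0551%) and 10 genes (0.184%). The rule chose the genes from these values, so every fold here describes 5 arrays and has no test.

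All populations were sorted from male C57BL6 mice, 5 weeks old, for which thymuses of 10 mice were used. Lineage markers were negative and CD24 positive on DN1 (CD25-, CD44hi), DN2 (CD25+, CD44hi), DN3 (CD25+, CD44lo) and preDP (CD25-, CD44lo), all from thymocytes enriched for blasts. Double positive (DP) cells were sorted as CD4+8+ from total thymocytes, so for any difference from DP the stage and the source of the cells cannot be told apart. Each population had 1 Affymetrix array, whether mice were pooled is not stated, and this single array per population limits the precision.

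In the thymus, double negative (DN) cells rearrange the T-cell receptor beta chain. A cell whose beta chain pairs with the invariant pre-TCR alpha chain signals through the CD3 complex, passes beta selection, loses CD25 and divides rapidly before it expresses CD8 and CD4. Such dividing cells copy their DNA with a set of genes under E2F transcription factors and then divide with a second set for mitosis. As these are bulk samples, fewer cells of a type and less RNA per cell cannot be told apart.

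The sort genes followed the gates where they were measured. The CD25 gene Il2ra had a signal of 65.8 (DN1), 1156 (DN2), 439 (DN3), 33.9 (preDP) and 34.7 (DP), so it was above the floor in the CD25+ sorts alone. Cd24a was bright on all 5 arrays, from 6849 in DN1 to 14356 in DN3, with 10224 in preDP. Cd4 was under the floor in preDP at 37.1 and reached 5096 in DP. Cd8a was 755 (DN1), 10.7 (DN2), 73.0 (DN3), 2031 (preDP) and 20020 (DP). Cd8b1 was 342, 19.4, 319, 6242 and 28020 in the same order. Both CD8 chains were therefore second highest in preDP, below DP and above every DN array, whereas Cd4 was not measured above the floor. No Cd44 probe set exceeded the floor, so the arrays do not bear on the CD44 gate.

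The preDP array was set apart by few large differences. DN1 had 305 genes (5.6% of those compared) at least 2-fold above every other array and DP had 220 (4.04%), against 18 in DN2 (0.331%), 8 in DN3 (0.147%) and 3 in preDP. At 1.5-fold preDP had 69, close to the 67 of DN2 (1.23%) and above the 21 of DN3 (0.386%), with 484 in DN1 (8.89%) and 518 in DP (9.52%). On the low side preDP had 75 genes at 1.5-fold, more than DN2 with 34 (0.625%) and DN3 with 24 (0.441%) and fewer than DN1 with 223 (4.1%) and DP with 363 (6.67%). At 2-fold the low side held 10 genes in preDP, 46 in DN1 (0.845%), 11 in DN2 (0.202%), 2 in DN3 (0.0367%) and 143 in DP (2.63%). The preDP counts depend on the arrays they are set against. Without DN3, 23 genes were 2-fold above and 40 below the remaining arrays. Without DP these were 16 and 41. Without DN2, 16 were above, and without DN1, 16 were below. Of the 69 genes highest in preDP, the second highest array was DN3 for 34, DN2 for 20, DP for 9 and DN1 for 6. Of the 75 lowest genes, the second lowest was DN3 for 39 and each other array for 12.

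**Figure D1:**
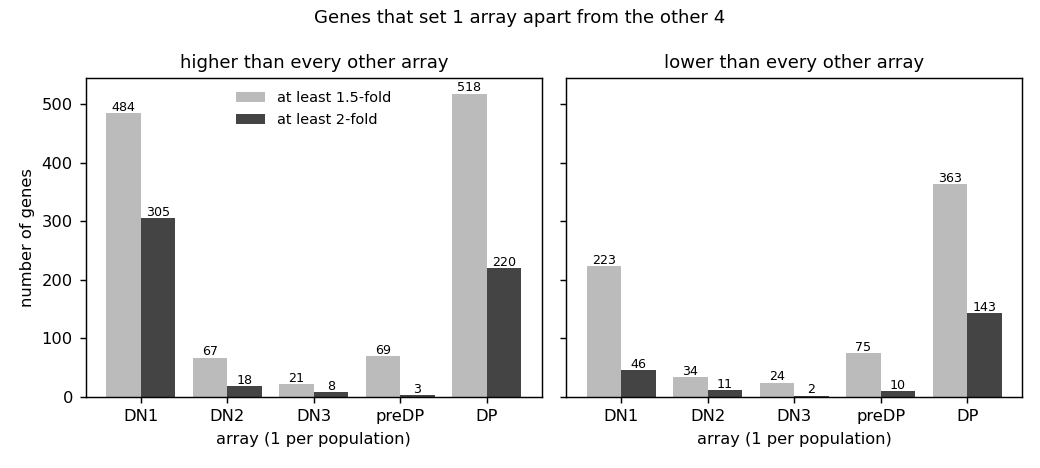
Number of genes (vertical axis) that are higher (left) or lower (right) on 1 array than on each of the other 4, for each array (horizontal axis), by at least 1.5-fold (light bars) and 2-fold (dark bars). DN1 and DP have the most such genes, and preDP has 69 and 3 on the high side and 75 and 10 on the low side.

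The only error these arrays give is the disagreement between probe sets of the same gene. Over 499 genes with 2 probe sets above the floor, the SD between probe sets was 0.54 on the log2 scale for preDP against the highest other array, 0.49 against the lowest and 0.42 against the median. A 1.5-fold difference is 0.58 on that scale and therefore close to this spread. Of the 69 highest genes, 17 had a second probe set above the floor, and it was also highest in preDP for 11. Of the 75 lowest genes, 13 had one, and it was also lowest in preDP for 7.

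The depth of signal and the RNA controls also differed in preDP. Its 9 spiked controls were lower than the median of the other arrays by a mean log2 difference of -0.29 (range -0.42 to -0.16). The 3′ over 5′ signal of Gapdh was 1.39 in preDP and 1.70 to 2.04 elsewhere, and that of Actb 2.79 against 2.83 to 3.31. Scaled to the spiked controls, a setting chosen after the values were seen, the median of all genes in preDP moved to 0.24 above the median of the other arrays. The genes at least 2-fold above every other array then numbered 31 and those below 5, so that 86.1% were on the high side instead of 23.1%. Scaling the arrays to an equal median gave 8 genes above and 8 below. The part of these controls in the results was not tested.

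Pdcd1, which encodes the inhibitory receptor PD-1, had the largest ratio over every other array. Its signal was 270 (DN1), 89.1 (DN2), 316 (DN3), 797 (preDP) and 74.1 (DP). DN3 was the nearest, 2.52-fold lower, and DN2 and DP were under the floor. Nr4a1, an orphan nuclear receptor induced by receptor signals, was 222, 64.2, 187, 493 and 250 in the same order, 1.97-fold above its nearest array, DP. Nr4a1 is also an early response gene of handled tissue, and the 22 measured genes of the immediate early and dissociation stress list had a median log2 difference of -0.06 from the median of the other arrays, with 3 highest in preDP (13.6%, against 21.6% of all genes). Of the 22, 2 exceeded every other array by 1.5-fold, Nr4a1 and Hsp90aa1, as did 1.27% of all genes. The part of sample handling in the Nr4a1 and Hsp90aa1 values was not tested.

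Of the 16 measured genes of the list induced by receptor signals, which includes both, 7 were at least 2-fold above the median of the other arrays and none 2-fold below (2.79% and 3.31% of all genes). Their median log2 difference from that median was 0.75, against 0.00 for all genes. Only Pdcd1 and Nr4a1 were highest in preDP, 12.5% of the list against 21.6% of all genes, since 10 of the 16 peaked in DP. Without the DP array, 11 of the 16 were highest in preDP, and so were 30.2% of all genes. Itm2a, a membrane protein of activated thymocytes, was 174 (DN1), 159 (DN2), 267 (DN3), 763 (preDP) and 808 (DP). Id3, an inhibitor of E proteins, was 302, 106, 825, 1304 and 1917. Cd28, the costimulatory receptor, was 96.6, 44.1, 332, 617 and 1432. These 3 were above every DN array and below DP. Egr1, an early growth response factor, was 279, 120, 298, 358 and 1015, and so lay close to DN3.

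Of 18 measured genes of T-cell receptor and pre-TCR signalling none was highest in preDP, against 21.6% of all genes, and 13 were highest in DP, as were 1661 of all 5443. Ptcra, the pre-TCR alpha chain, was 17.0 (DN1), 108 (DN2), 3692 (DN3), 1181 (preDP) and 945 (DP). Zap70, the kinase bound to the CD3 complex, was 1368, 1025, 4644, 6928 and 13066. Ptcra was highest in DN3, while Zap70 lay between DN3 and DP. The CD3 chain genes Cd3d, Cd3e and Cd3g were lower in preDP than in both DN3 and DP. Cd247, the zeta chain, was 222, 439, 773, 828 and 3029, and so was slightly above DN3 in preDP. Cd3d was 335, 234, 5740, 3181 and 6493, Cd3e 558, 1648, 7264, 3644 and 8547, and Cd3g 582, 6301, 15850, 6179 and 11294.

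**Figure D2:**
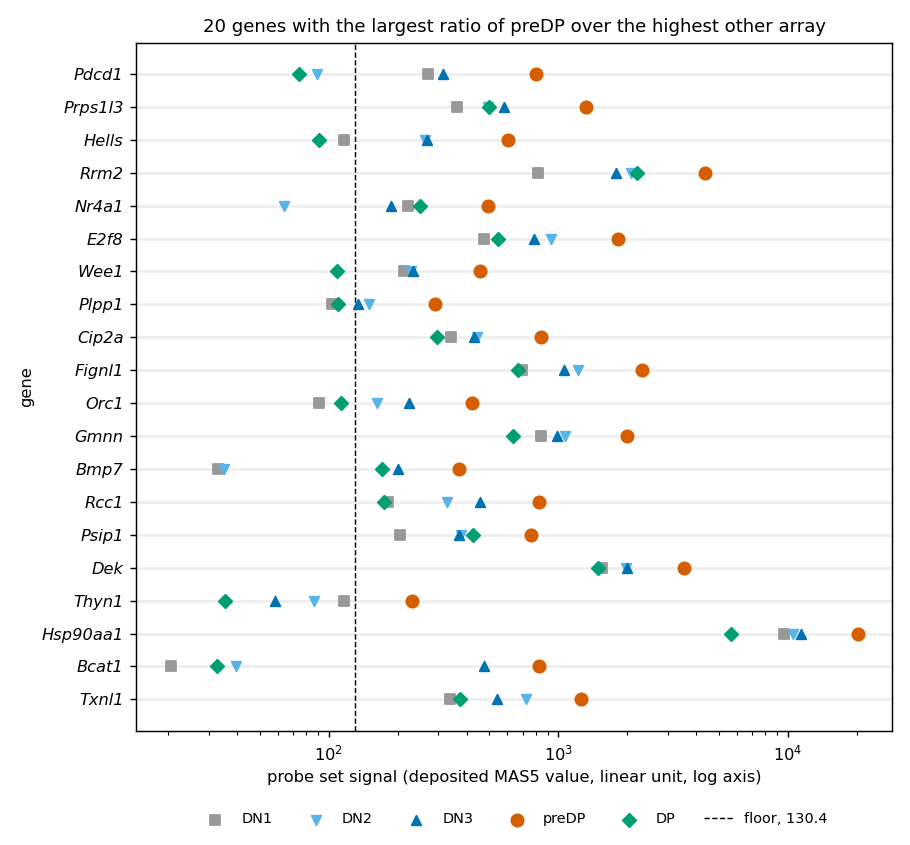
Signal on each array (horizontal axis, log scale, linear MAS5 values) of the 20 genes with the largest ratio of preDP over the highest other array, 1 symbol per array, with the floor of 130.4 dashed. The preDP point lies to the right of all others in each row, and for Thyn1 all 4 other arrays are under the floor.

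Of the 69 highest genes, 16 were in the lists of S phase, G2 and mitosis, and E2F genes, as were 100 of all 5443 and none of the 75 lowest. Hells, a chromatin remodelling helicase of dividing lymphoid cells, was 116 (DN1), 263 (DN2), 267 (DN3), 603 (preDP) and 91.2 (DP), which is 2.26-fold above DN3. Orc1, the largest subunit of the origin recognition complex, was 90.5, 163, 223, 420 and 114, 1.88-fold above DN3, but only 0.31 above it on the log2 scale with the floor at the 65th percentile. Bub1, a kinase of the spindle checkpoint, was 261, 534, 398, 896 and 281, highest in preDP and next in DN2. E2f8, an E2F family repressor, was 474, 932, 784, 1818 and 548, 1.95-fold above DN2. Its second probe set was highest in preDP too, at 839 against 382 to 468. Both E2f8 probe sets carry a suffix for a relaxed or shared design, so E2f8 had no plain probe set. All 4 genes were lowest in DN1 or DP.

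The upstream sequences of these 4 and of Pdcd1 are shown because the genes share the preDP peak and E2F, CCAAT and CHR elements are known in promoters of replication and mitosis genes. They are the 250 bases before each gene's start in RefSeq's table for GRCm38.p6, 5′ to 3′ on the gene's strand, with letters of the searched motifs in capitals. Hells lies at chr19:38930740-38930989 on the plus strand, Orc1 at chr4:108579204-108579453 (plus), Bub1 at chr2:127831860-127832109 (minus), E2f8 at chr7:48881597-48881846 (minus) and Pdcd1 at chr1:94052554-94052803 (minus).
Hells: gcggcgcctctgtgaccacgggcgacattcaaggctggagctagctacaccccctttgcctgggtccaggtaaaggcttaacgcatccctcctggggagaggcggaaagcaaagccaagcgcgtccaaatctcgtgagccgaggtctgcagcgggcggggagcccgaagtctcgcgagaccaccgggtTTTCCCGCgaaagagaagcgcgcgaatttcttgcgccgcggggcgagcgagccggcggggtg
Orc1: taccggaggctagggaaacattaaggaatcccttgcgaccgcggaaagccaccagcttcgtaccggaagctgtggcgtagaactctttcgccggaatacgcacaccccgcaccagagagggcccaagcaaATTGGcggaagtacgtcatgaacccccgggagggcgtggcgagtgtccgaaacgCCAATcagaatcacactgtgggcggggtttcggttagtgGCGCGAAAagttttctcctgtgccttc
Bub1: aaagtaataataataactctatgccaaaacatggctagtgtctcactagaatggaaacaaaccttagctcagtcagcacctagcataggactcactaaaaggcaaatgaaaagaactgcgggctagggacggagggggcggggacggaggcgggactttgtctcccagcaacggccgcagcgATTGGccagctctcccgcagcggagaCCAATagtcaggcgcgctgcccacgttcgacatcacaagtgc
E2f8: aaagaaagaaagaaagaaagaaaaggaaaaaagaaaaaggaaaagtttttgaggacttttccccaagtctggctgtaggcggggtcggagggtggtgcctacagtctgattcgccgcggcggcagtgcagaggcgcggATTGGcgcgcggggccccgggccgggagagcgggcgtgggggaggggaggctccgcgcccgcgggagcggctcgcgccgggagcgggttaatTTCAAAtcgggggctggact
Pdcd1: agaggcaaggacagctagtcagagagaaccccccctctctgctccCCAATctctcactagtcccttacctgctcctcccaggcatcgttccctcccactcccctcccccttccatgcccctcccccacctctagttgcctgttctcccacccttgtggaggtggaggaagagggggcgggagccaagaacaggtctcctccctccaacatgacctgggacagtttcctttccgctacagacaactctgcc

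The motifs searched on both strands were TTTCCCGC, TTTGGCGC and TTTCGCGC for E2F, CCAAT, and TTTGAA for CHR, a cell cycle element, and different motifs may overlap. Hells held TTTCCCGC 62 bases before the start. Orc1 held GCGCGAAA, the other strand of an E2F form, 27 bases before the start, with CCAAT at 66 and ATTGG at 120. Bub1 held CCAAT at 42 and ATTGG at 68. E2f8 held ATTGG at 112 and TTCAAA at 20. Pdcd1 held CCAAT at 205 and none of the other forms. Of the 69 highest genes, 55 had a promoter in the table, and 6 (10.9%) held an E2F form, 35 (63.6%) CCAAT and 15 (27.3%) CHR. Over the 4436 compared genes with a promoter these shares were 4.08%, 40.5% and 13.2%, and over all 27025 promoters 1.78%, 37.5% and 18.3%. Among the 75 lowest genes, 59 had a promoter, with shares of 1.69%, 40.7% and 11.9%. The measured S phase genes (39 with a promoter) held an E2F form in 20.5% and CHR in 15.4%, and the G2 and mitosis genes (39) in 5.13% and 41.0%. A match describes letters in this window and shows no binding.

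Genes of DNA replication lay high together. Of 44 measured S phase genes, 34 (77.3%) had their highest signal in preDP, against 21.6% of all genes, 9 in DN2, 1 in DN3 and none in DN1 or DP. Their median log2 difference was 0.84 from the median of the other arrays, 1.23 from DN1, 0.30 from DN2, 0.54 from DN3 and 1.45 from DP. At 1.5-fold, 7 exceeded every other array, as did 1.27% of all genes, and none was lowest (13.3% of all genes). Rrm2, the small subunit of ribonucleotide reductase, was 820 (DN1), 2081 (DN2), 1788 (DN3), 4354 (preDP) and 2203 (DP), 1.98-fold above DP. Gmnn, which restrains origin licensing through Cdt1, was 841, 1072, 986, 1998 and 638. Rfc4, a subunit of the clamp loader, was 334, 768, 911, 1440 and 420. All 3 were highest in preDP, with different arrays next. Mcm5 and Mcm7, subunits of the replicative helicase, were also highest, at 12945 and 7157, but near DN2 at 11018 and 6578. Rfc2 at 2490 in preDP was below DN2 at 4179.

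Mitosis genes had a like pattern. Of 49 measured G2 and mitosis genes, 41 (83.7%, against 21.6% of all genes) were highest in preDP, 4 in DN2, 2 in DN3 and 1 each in DN1 and DP. Of the 49, 8 exceeded every other array by 1.5-fold, as did 1.27% of all genes. The median log2 difference was 0.89 from the median of the other arrays, 1.11 from DN1, 0.39 from DN2, 0.73 from DN3 and 1.44 from DP. Wee1, the kinase that holds Cdk1 inactive, was 213 (DN1), 228 (DN2), 234 (DN3), 455 (preDP) and 109 (DP). Cdk1, the mitotic kinase, was 1862, 2767, 2427, 4359 and 1195. Kif11, a spindle motor, was 656, 1607, 1103, 2389 and 677. Foxm1, a transcription factor of mitosis genes, was 536, 647, 595, 1043 and 462. Mki67, the proliferation marker, was not highest in preDP, with 2919 there and 4128 in DN2. Of 7 measured E2F and pocket protein genes, 5 (71.4%, against 21.6% of all genes) were highest in preDP. Among them was Tfdp1, the E2F partner, at 8497 against 2970 to 5684. E2f1 led by only 1.09-fold, and E2f5 by 1.02-fold with all 4 other arrays under the floor.

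**Figure D3:**
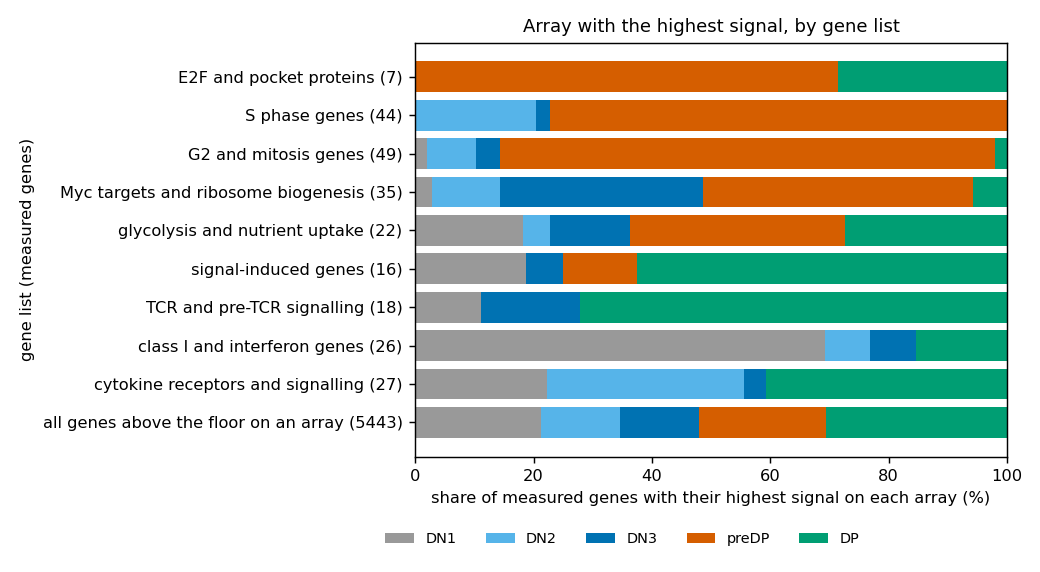
Share of each list's measured genes (horizontal axis, percent; number in brackets) with their highest signal on each of the 5 arrays, by colour, with all compared genes as the last bar. The preDP share is 77.3% for S phase genes, 83.7% for G2 and mitosis genes and 21.6% for all genes.

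Ribosome production genes were high in both DN3 and preDP. Of 35 measured Myc targets and ribosome biogenesis genes, 16 (45.7%, against 21.6% of all genes) were highest in preDP and 12 in DN3. None exceeded every other array by 1.5-fold, against 1.27% of all genes. The median log2 difference was 0.01 from DN3, 0.31 from DN2, 0.69 from DN1 and 1.51 from DP. Myc was 463 (DN1), 597 (DN2), 1014 (DN3), 1347 (preDP) and 84.1 (DP). Mycn, its relative in progenitors, was 512, 575, 114, 41.2 and 31.4, and so was under the floor in preDP. Glycolysis and nutrient uptake genes were highest in preDP for 8 of 22 (36.4%, against 21.6% of all genes). None of them exceeded every other array by 1.5-fold, a size reached by 1.27% of all genes. None was 2-fold above or below the median of the other arrays, against 2.79% and 3.31% of all genes. With shares this small, few or no genes of a list of 22 would be counted.

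The remaining genes of the highest group had varied roles. Gzma, granzyme A of cytotoxic granules, was 261 (DN1), 349 (DN2), 2902 (DN3), 5036 (preDP) and 215 (DP). It was 16.7-fold above the median of the other arrays and 1.74-fold above DN3, so DN3 and preDP were high and the others low. Without DN3 its log2 difference from the highest other array was 3.85 instead of 0.80. Of the 14 cytotoxic granule genes on the array 6 were above the floor on any array, and Gzma alone was 2-fold above the median. Bcat1, a branched-chain aminotransferase, was 20.5, 39.5, 474, 827 and 32.6 and shared that pattern, with a log2 difference of 2.66 without DN3 instead of 0.80. Hsp90aa1, the inducible Hsp90 chaperone and a member of the dissociation stress list, was 9606, 10576, 11446, 20287 and 5657. Cip2a, an inhibitor of protein phosphatase PP2A, was 342, 445, 431, 845 and 298. Bid, a pro-apoptotic BCL-2 family member, was 592, 406, 606, 1051 and 463. Hsp90aa1, Cip2a and Bid were 1.77-, 1.90- and 1.73-fold above the next array.

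Some of the highest genes rest on weaker probe sets. Prps1l3, a copy of the gene for the ribose phosphate enzyme Prps1, was 362, 493, 580, 1326 and 502 and 2.29-fold above DN3. Its probe set carries the suffix that marks a relaxed design, its other probe set was under the floor, and Prps1 itself was highest in preDP at 2607 against 827 to 1872, so the signals of the 2 genes cannot be told apart. With plain probe sets alone Prps1l3 had no value above the floor that set preDP apart (log2 difference 0.00). Fignl1, a DNA repair ATPase, was 694, 1223, 1059, 2312 and 671 by 1 probe set and not highest in preDP by its second. Thyn1 was at least 1.77-fold above all 4 others, which were under the floor, and its direction turned under 3 of the alternative settings. Just inside the 2-fold limit were Hells at 2.26, Prps1l3 at 2.29 and Pdcd1 at 2.52, and just outside Rrm2 at 1.98, Nr4a1 at 1.97 and E2f8 at 1.95.

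Several of the genes lowest in preDP were near the floor there. Rasa4, a Ras GTPase-activating protein, was 3169 (DN1), 1113 (DN2), 524 (DN3), 153 (preDP) and 479 (DP), which put DP 3.12-fold above preDP. Cd79b, a signalling chain of the B-cell receptor, was 1667, 830, 1234, 305 and 1126, on arrays whose B-lineage markers, Cd79b included, summed to 64688, 7158, 7107, 8931 and 10578, of which Ighm gave 52870, 3009, 4110, 6792 and 8496. Their part in it was not tested. Uba7, the activating enzyme of the ubiquitin-like protein ISG15, was 2434, 1966, 1814, 613 and 1616. Each was above preDP on all 4 other arrays, by at least 2.64-fold for these 3. Polr2a, the largest subunit of RNA polymerase II, was 4728, 5437, 4242, 1811 and 6092, and its second probe set was lowest in preDP too, at 686 against 855 to 1134. Ptpre, a protein tyrosine phosphatase, was 1577, 1254, 444, 205 and 855. Plin2, a coat protein of lipid droplets, was 1578, 822, 769, 379 and 1013.

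Atxn7l1 was 534, 1453, 1059, 194 and 1651, Wdr13 446, 512, 362, 145 and 510, and Ypel3 1947, 1778, 1573, 777 and 4778. With the floor at the 65th percentile, the log2 difference from the lowest other array shrank from -1.64 to -0.50 for Rasa4, from -1.46 to -0.66 for Atxn7l1, from -1.32 to -0.10 for Wdr13, from -1.11 to -0.39 for Ptpre and from -0.95 to -0.22 for Stat4. Without DN1 that of Atxn7l1 was -2.45, and without DN3 that of Ptpre was -2.06. Tcf25 was at least 2.32-fold lower in preDP, where its 65.2 was under the floor, and its second probe set was not lowest there. Just outside the 2-fold limit were Stat4 at 1.93, Ctdsp2 at 1.91 and Npc1 at 1.89, and just inside Ypel3 at 2.02, Plin2 at 2.03 and Ptpre at 2.16. Stat4, the transcription factor used by interleukin 12, was 527, 881, 394, 204 and 401. Npc1, the lysosomal cholesterol transporter, was 1177, 1927, 1096, 581 and 1461. For both Stat4 and Npc1, DN3 was the next lowest array.

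**Figure D4:**
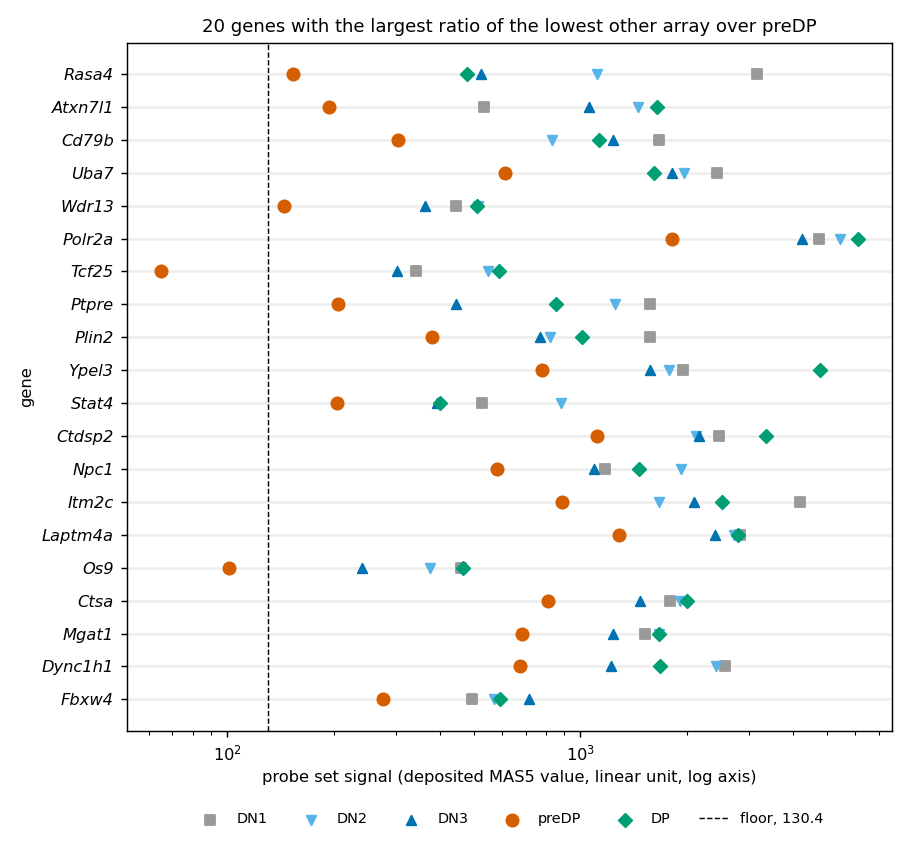
Signal on each array (horizontal axis, log scale, linear MAS5 values) of the 20 genes with the largest ratio of the lowest other array over preDP, with the floor of 130.4 dashed. The preDP point lies to the left of all others, and it is under the floor for Tcf25 and Os9.

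Genes of cytokine receptors and their signalling were low in preDP as a list. Of 27 measured genes none was highest in preDP, 7 (25.9%, against 13.3% of all genes) were lowest, and 7 were at least 2-fold below the median of the other arrays, against 3.31% of all genes, with a list median of -0.69 on the log2 scale. The 7 lowest were the receptor genes Il17ra, Ifnar1 and Tnfrsf1a and the signalling genes Jak1, Stat3, Stat4 and Socs3. The 7 below the median by 2-fold were Il4ra, Il10ra, Il17ra, Kit, Stat4, Socs2 and Cish. Il7r, the interleukin 7 receptor, was 304 (DN1), 1538 (DN2), 748 (DN3), 295 (preDP) and 40.5 (DP). Il17ra was 1689, 2146, 1523, 915 and 3021. Il4ra was 794, 559, 70.9, 119 and 2917. The high arrays were DN2 for Il7r and DP for the other two, with preDP under the floor for Il4ra.

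Class I and interferon genes were low against the DN arrays, and about level with DP. Of 26 measured genes, 7 (26.9%, against 13.3% of all genes) were lowest in preDP and none was highest (21.6% of all genes), and the list median was -0.60. By array, the median log2 difference was -1.32 from DN1, -0.70 from DN2, -0.50 from DN3 and -0.04 from DP. H2-K1, a class I heavy chain, was 23673, 13841, 8092, 3897 and 1459 and so lower on each array than on the one before, but with plain probe sets alone it was 0.24 above the median of the other arrays on the log2 scale. B2m, the class I light chain, was 14200, 9966, 12523, 7042 and 4542. Tapbp, the class I loading factor tapasin, was 5531, 3151, 2444, 1376 and 2016 and lowest in preDP, as was Irf9, an interferon response factor, at 1459, 1058, 811, 476 and 910. H2-Q1 went the other way, with 961 in preDP against 94.1 to 232 in the DN arrays and 1887 in DP.

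Most progenitor genes were under the floor in preDP, DN3 and DP. Of 17 measured genes 5 were above the floor in preDP, 7 in DN3 and 4 in DP. Most were thus tied with other arrays at the floor and could not be ranked. Their summed signal was 30120 (DN1), 28413 (DN2), 5514 (DN3), 2481 (preDP) and 1613 (DP). Of the 17, 7 were 2-fold below the median of the other arrays, against 3.31% of all genes, and the list median was -0.72. By array, the median log2 difference was -2.37 from DN1, -1.44 from DN2 and 0.0 from both DN3 and DP. With so many ties at the floor, the 0.0 does not show that these arrays were alike. Lyl1, a progenitor transcription factor, was 7355 (DN1), 10202 (DN2), 67.1 (DN3), 116 (preDP) and 93.8 (DP). Nfe2 was 1832, 4606, 467, 59.4 and 35.6. Kit, the stem cell factor receptor, was 1166, 1347, 254, 123 and 36.8. All 3 were under the floor in preDP and high in DN1 and DN2. Myl10 differed, with its highest signal in DN3, at 168, 2219, 2744, 186 and 32.2 in the same order.

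**Figure D5:**
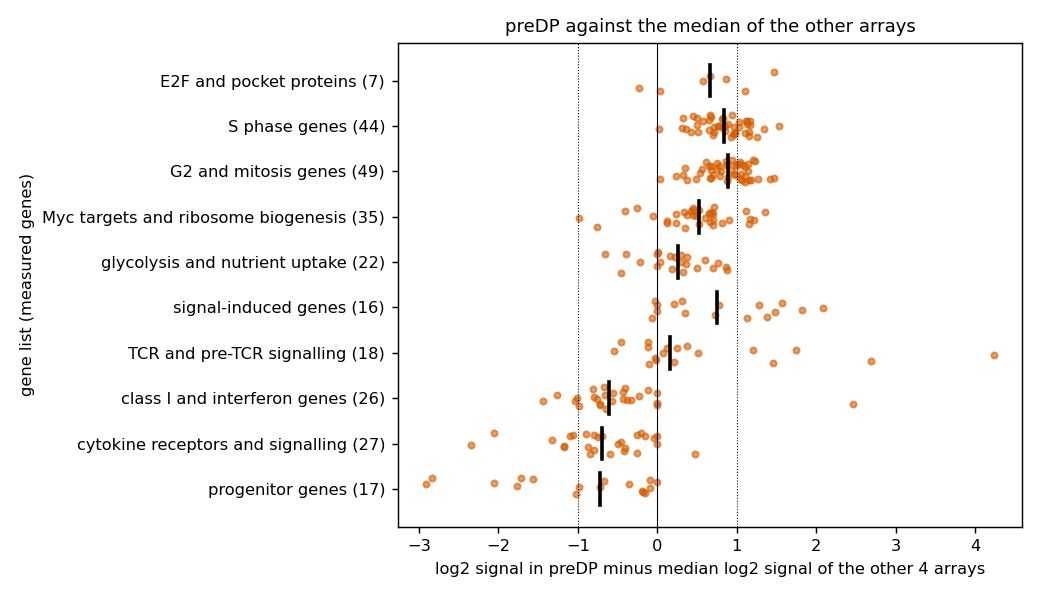
Each point is a measured gene, placed by its log2 signal in preDP minus the median log2 signal of the other 4 arrays (horizontal axis; dotted lines at 2-fold), with lists by row and a black bar at each list's median. S phase genes centre at 0.84 and G2 and mitosis genes at 0.89, whereas cytokine receptors centre at -0.69 and progenitor genes at -0.72.

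Against the median of the other arrays, 152 genes (2.79%) were at least 2-fold higher in preDP and 180 (3.31%) at least 2-fold lower. At 1.5-fold these were 647 (11.9%) and 543 (9.98%). Without DN1, 71 were 2-fold higher, without DN2 264, and without DN3 320 were higher and 291 lower. The higher share was 45.8%, and it became 59.8% with arrays scaled to an equal median and 78.4% with the spiked controls. Cd8b1 had the largest ratio, 18.9-fold. Cd8a was at least 6.47-fold higher, and Sh2d1a, the signalling adaptor SAP, at least 5.05-fold higher, with 97.1 (DN1), 101 (DN2), 545 (DN3), 1348 (preDP) and 2378 (DP). Which arrays enter the median moves these values. On the log2 scale, leaving out 1 array gave 1.43 to 3.96 for Cd8a and 1.31 to 3.37 for Sh2d1a, whereas Cd8b1 lay between 3.79 and 4.61 under the settings that gave it a value.

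Of the marker lists of other cell types, the myeloid and dendritic cell sums were lowest in preDP, the dendritic sum only just below DP. The B-lineage, NK and gamma delta sums of preDP lay within the range of the other arrays. Myeloid markers summed to a signal of 781 in preDP, 1292 to 3241 in DN2, DN3 and DP and 132222 in DN1, and 2 of the 16 measured were above the floor in preDP. Dendritic cell markers summed to 4891 in preDP, 4933 to 9211 in DN2, DN3 and DP and 183129 in DN1. Of the 15 measured, 9 were above the floor in preDP, 12 in DN2, 7 in DN3 and 6 in DP. In the preDP sum, Cst3 gave 1983 and H2-DMa 860, and both genes were above the floor on all 5 arrays. B-lineage markers summed to 8931 in preDP, 7107 to 10578 in DN2, DN3 and DP and 64688 in DN1, with 5 of 15 above the floor. Ighm, the immunoglobulin heavy chain gene, gave 6792 of the preDP sum and 52870 of the DN1 sum. NK and innate lymphoid markers summed to 1694 in preDP, within 1425 to 3765 in the other non-DN1 arrays, with 2 of 9 above the floor. Gata3, a factor that T-lineage cells also express, gave 1376 of the preDP sum, so the sum says little of NK cells. Gamma delta and innate-like T markers summed to 8954 in preDP, 6676 in DN1, 34098 in DN2, 25901 in DN3 and 737 in DP, with 5 of 6 above the floor. Most of the preDP sum came from the gene segments Trgv1 (3009) and Trgv4 (3680), as did most of the DN2 sum (6958 and 24961). As the DN1 array carries most of the myeloid, dendritic and B-lineage signal, ratios of preDP to DN1 move with it, and its part in those ratios was not tested.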

How the data were processed

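RNA from 5 sorted thymocyte populations was hybridised to 1 Affymetrix array each. The authors deposited linear signal intensities per probe set. The submitters' processing notes name MAS5 and Affymetrix Expression Console 1.0, without settings. The mean after trimming was 500.3 to 500.4 on every array, which hides any difference in total RNA per cell. Of 12488 probe sets, 66 controls and those with several symbols (396) or none (1259) were left out. Symbols were checked through gene identifiers against RefSeq, which matched 10817 of 10833. A gene was represented by its probe set with the highest mean log2 signal. Values under the 50th percentile of gene probe sets, 130.4, were raised to it before log2.

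With 1 array per population nothing was tested. Named genes are the 20 largest ratios in each direction over the highest or lowest other array, 10 in each direction over the median, up to 4 per list, the sort genes and Pdcd1, E2f8, Gzma and Nr4a1. Other list members are given as examples chosen after their values were seen. The members and lists were chosen with earlier results of these data known, and a lysosomal list was added after seeing the values. Alternatives were scaling, floor, probe set choice, fold size and leaving out each other array, and scaling to the spiked controls was added after seeing the data. The counting step was tested on simulated data. Python 3.11.15, numpy 2.4.6, pandas 2.3.3 and matplotlib 3.10.9 were used.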

Additional observations from a re-analysis of the deposited data

How the results depend on the processing

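Counts of genes at least 2-fold from the other arrays are given in the order above the highest, below the lowest, above the median and below the median, where the main values were 3, 10, 152 and 180. Changing the size gave 69, 75, 647 and 543 at 1.5-fold and 0, 1, 17 and 48 at 3-fold. Scaling to the spiked controls gave 31, 5, 385 and 106, and a floor at the 35th percentile 13, 32, 230 and 308. Other settings moved some counts: quantile normalisation gave 5 and equal medians 8 above the highest. A floor at the 65th percentile gave 5 below the lowest and 98 below the median, and an added constant 6 below the lowest, 86 above the median and 116 below it. Without DN1 16 were below the lowest and 71 above the median, without DN2 16 above the highest and 264 above the median, without DN3 23, 40, 320 and 291, and without DP 16 above the highest and 41 below the lowest. All 3 main genes above the highest were also above it under scaling to the spiked controls, the lower floor and each left-out array. These settings could not bring them below it. Leaving out an array cannot lower the ratio, DN3 as the nearest array was above the floor, and the spiked controls raise preDP. Over all settings the lowest log2 difference was 0.00 for Prps1l3 and 0.83 for Hells, both under 2-fold. Over the settings, 33 to 41 of the measured S phase genes and 35 to 45 of the G2 and mitosis genes were highest in preDP. The share of all genes highest in preDP moved too, from 20.6% with the lower floor to 37.9% with the spiked controls. Reversed in sign were Thyn1 (-0.05 at the lower floor and with plain probe sets, -0.02 with an added constant), H2-K1 (0.24 with plain probe sets), Rag1 (-0.80 without DN1 or DN2), the erythroid list (0.16 with spiked controls) and the gamma delta list (-0.05 without DP). The cause was not tested. Over the settings that gave a value, the log2 difference over the highest other array was 1.05 to 1.72 for Pdcd1, 0.83 to 1.36 for Hells, 0.88 to 1.21 for E2f8 and 0.54 to 1.18 for Nr4a1. Over the lowest other array it was -1.77 to -0.50 for Rasa4, -2.45 to -0.66 for Atxn7l1, -1.88 to -1.14 for Cd79b, -1.57 to -1.18 for Uba7, -1.62 to -0.10 for Wdr13 and -1.38 to -0.78 for Polr2a. No paired analysis was possible because each population had 1 array. The lack of replicates and signals near the floor limit the precision.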

Other observations

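Genes of lysosomes appeared among the lowest in preDP, so a list of 56 lysosomal genes was drawn up after the values were seen, and its counts are a description. Of 39 measured, 16 (41.0%) were lowest in preDP, against 13.3% of all genes. Of the 39, 6 were at least 1.5-fold below every other array, as were 1.38% of all genes. The list median was -0.40 against the median of the other arrays. By array, the median log2 difference was -1.14 from DN1, -0.31 from DN2, -0.08 from DN3 and -0.56 from DP. As a list these genes were therefore almost level with DN3. Ctsa, cathepsin A, was 1788 (DN1), 1912 (DN2), 1477 (DN3), 810 (preDP) and 2000 (DP). Laptm4a, a lysosomal membrane protein, was 2829, 2716, 2411, 1287 and 2793. Npc2, which passes cholesterol to Npc1, was 6144, 4156, 3799, 2200 and 3634. Ctsl, cathepsin L, went the other way at 472 in preDP, above every DN array and below DP at 2542.

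Reverse-strand controls were unequal between arrays. The Gapdh reverse-strand control for the 5′ part was 83.7 (DN1), 117 (DN2), 32.5 (DN3), 339 (preDP) and 28.1 (DP), and the control for the middle part was 34.8, 181, 133, 303 and 81.9. Of the 690 measured probe sets with several gene symbols or none, 2 were at least 2-fold above every other array in preDP and none was 2-fold below. Over all compared genes these shares were 0.0551% and 0.184%. At 1.5-fold, 9 of the 690 were above and 11 below, against 1.27% and 1.38% of all compared genes.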
